A study of Mus musculus with 4 samples.

Results

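The immediate early response, represented by 10 genes, was followed through 4 RNA libraries of cells sorted from the mouse submandibular gland, a paired salivary gland. The genes are Fos, Fosb, Jun, Junb, Egr1, Atf3, Ier2, Nr4a1, Dusp1 and Zfp36, chosen by name, 10 of the 53465 genes in each count table. The 2 ADU libraries came from adults at postnatal day 60 that had received tamoxifen on days 57 and 58, and the 2 PUP libraries from pups at postnatal day 7 that had received it on days 4 and 5, each time at 0.1 mg per g of body weight. All mice were C57BL/6J and carried Fgf10CreERT2:Rosa26Tomato fl/fl, a Cre recombinase switched on by tamoxifen in cells that use the Fgf10 promoter, and a red reporter that such cells then keep. The sorted cells are those labelled Fgf10+ in both ages, so each library is meant to hold whatever cell types used that promoter at the time of tamoxifen. The purity of the sort was not tested. Nothing in the labels ties a replicate to an animal of its own, and the spread that the p-values rest on may be purely technical.

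Immediate early genes are transcribed within minutes of a stimulus from promoters that already carry their activators, and need no new protein for it. Most encode transcription factors, and others encode phosphatases and RNA-binding proteins that shut the response down. Their mRNAs are short-lived. The response follows growth factors and calcium signals, and it is also known to be set off when tissue is cut, digested with enzymes and sorted, for which these genes serve as a common sign. No library of undissociated gland was analysed here, so how much of any level below arose during dissociation was not tested.

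The 10 genes were among the most abundant transcripts in every library. Together they took 2.30% of all gene counts in ADU replicate 1 (95% Wilson interval 2.296 to 2.312%), 2.01% in ADU replicate 2 (2.004 to 2.017%), 1.85% in PUP replicate 1 (1.837 to 1.857%) and 2.19% in PUP replicate 2 (2.188 to 2.200%), intervals that cover counting error only. The mean share was 2.15% ± 0.205 in ADU and 2.02% ± 0.240 in PUP (SD, n = 2 each), so the difference between ages was smaller than the spread within either. The lowest count of any of the 10 genes in any library was 4732. The gene totals behind these shares were 13791730 and 16585518 counts in the ADU libraries and 7289792 and 21490686 in the PUP libraries.

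PUP replicate 1 stood apart from the other libraries. Reads outside annotated genes made up 76.7% of all reads tallied there, against 9.70 to 10.6% in the rest, and 44734 genes had a count, against 16805 to 19764. Its background was estimated at 13.99 counts per kb of exon from 1134 olfactory receptor genes, used as genes not expected to be transcribed there. That rate predicts 455 of the 134621 counts of the 10 genes in that library, between 0.103% of the counts of Fos and 1.22% of those of Fosb. Their raw counts there were thus nearly free of background, but the scaling of the library was not, because background made up 20.5% of all its gene counts. Levels are given below as CPM, counts scaled to a common library size, after TMM scaling, which sets libraries level by the trimmed mean of their gene-wise ratios. The TMM factor was 1.421 for PUP replicate 1 and 0.838 to 0.947 for the others, which places its CPM low. The summed CPM of the 10 genes were 24350 and 24000 in ADU and 14570 and 24770 in PUP on that scale, and 23340 and 22960 in ADU and 19800 and 23730 in PUP once the background was subtracted. After that subtraction the TMM factor of PUP replicate 1 was still 1.244, against 0.878 to 0.988 for the others, which again scaled its CPM down.

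Fos, which pairs with Jun proteins to form the transcription factor AP-1, was the highest of the 10 per length in each of the 4 libraries. It lies on chromosome 12, 85473890 to 85477273 (GRCm38, plus strand, ENSMUSG00000021250). Fos stood at 9846 and 6194 CPM in ADU replicates 1 and 2, against 3450 and 5426 CPM in PUP replicates 1 and 2. Both ADU libraries were above both PUP libraries, and the log2 fold change of ADU over PUP was 0.85 ± 1.86 (SE, 2 libraries per age), with a Benjamini-Hochberg adjusted p of 0.891 by the edgeR quasi-likelihood test. The SE here and below comes from the edgeR fit, which draws its spread in part from other genes. It is not the spread of the gene's own libraries. DESeq2 gave a smaller SE for each of the 10 genes, 0.49 for Fos. Divided by the length of its main transcript, the level of Fos came to 4671 and 2938 CPM per kb in ADU and 1636 and 2574 CPM per kb in PUP. On that scale Fos ranked 12 and 25 in the ADU libraries and 11 and 13 in the PUP libraries, out of 16320 genes tested.

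Fosb, a paralogue of Fos with the same role as a partner of Jun proteins, was the lowest of the 10 per length in all 4 libraries. It lies on chromosome 7, 19302696 to 19310051 (minus strand, ENSMUSG00000003545). It stood at 641 and 784 CPM in ADU, against 777 and 1602 CPM in PUP. ADU replicate 2 and PUP replicate 1 were nearly level, so the ages overlapped, and the log2 fold change was -0.74 ± 0.91 (SE; edgeR adjusted p = 0.793). Scaled to library totals, the values were 606 and 657 CPM in ADU and 985 and 1419 CPM in PUP, which do not overlap.

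Jun, the founding member of the other AP-1 family, has a main transcript of 1 exon and lies on chromosome 4, 95049034 to 95052222 (minus strand, ENSMUSG00000052684). Jun stood at 3554 and 3690 CPM in ADU, against 1540 and 2353 CPM in PUP. The ADU libraries agreed closely and both lay above the PUP libraries. The log2 fold change was 0.90 ± 1.32 (SE), a linear fold of 1.86, with an edgeR adjusted p of 0.831. In DESeq2, whose unadjusted p was 0.0406, the adjusted p was 0.225, the lowest among the 10 genes.

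Junb, a Jun protein that can also restrain Jun, has a main transcript of 1 exon and lies on chromosome 8, 84974484 to 84978718 (minus strand, ENSMUSG00000052837). It stood at 1368 and 2084 CPM in ADU, against 1151 and 2372 CPM in PUP. In both ages replicate 2 was higher than replicate 1 by more than the ages differed, and the log2 fold change was -0.03 ± 1.12 (SE; edgeR adjusted p = 0.994). Of the exon length of Junb, 7.52% is shared with Prdx2 on the opposite strand, and 7.28% of that of Jun with the antisense gene Junos; as the library kit does not mark strand, reads there cannot be told apart.

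Atf3, a bZIP factor of the ATF/CREB family that is induced by many stresses and can pair with Jun, lies on chromosome 1, 191170296 to 191218039 (minus strand, ENSMUSG00000026628). Atf3 stood at 1839 and 2828 CPM in ADU, against 905 and 1588 CPM in PUP. Both ADU libraries were above both PUP libraries, and its log2 fold change of 0.90 ± 1.13 (SE; edgeR adjusted p = 0.796) was the largest upward value among the 10. In rank per length it was 71 and 47 in the ADU libraries, 47 and 78 in the PUP libraries.

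**Figure D1:**
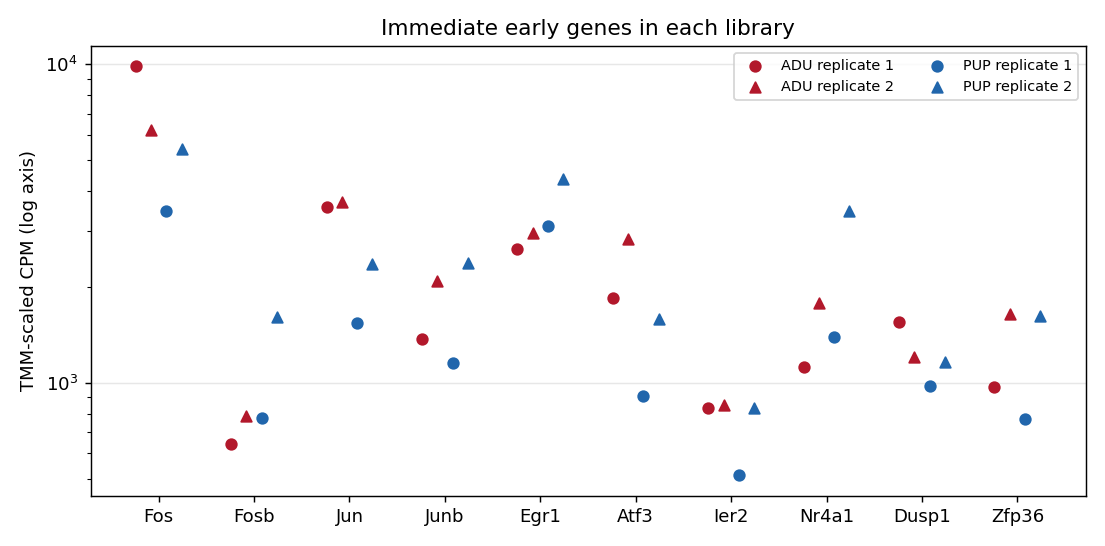
TMM-scaled CPM of each immediate early gene in each library, on a log axis, with ADU in red, PUP in blue, circles for replicate 1 and triangles for replicate 2. Fos is highest, up to 9846 CPM in ADU replicate 1, and for Fos, Jun, Atf3 and Dusp1 both ADU points lie above both PUP points.

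Egr1, a zinc finger activator and a standard readout of ERK signalling, lies on chromosome 18, 34859823 to 34864984 (plus strand, ENSMUSG00000038418). Egr1 stood at 2630 and 2958 CPM in ADU, against 3098 and 4359 CPM in PUP. Among the 10 genes, Egr1 alone had both ADU libraries below both PUP libraries on the TMM scale, with a log2 fold change of -0.42 ± 1.40 (SE; edgeR adjusted p = 0.933). On that scale, the gap between its nearest ADU and PUP values was smaller than the gap between the PUP replicates. Scaled to library totals, Egr1 stood at 2488 and 2477 CPM in ADU and 3926 and 3861 CPM in PUP. There the gap between the ages was larger than that between the PUP replicates.

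Nr4a1, an orphan nuclear receptor known as Nur77, lies on chromosome 15, 101254269 to 101274795 (plus strand, ENSMUSG00000023034). It stood at 1123 and 1774 CPM in ADU, against 1388 and 3459 CPM in PUP. PUP replicate 2 was the highest of the libraries and the ages overlapped, with a log2 fold change of -0.74 ± 1.2 (SE; edgeR adjusted p = 0.846), and PUP replicate 1 lay between the ADU libraries. Scaled to library totals, Nr4a1 stood at 1062 and 1486 CPM in ADU and 1760 and 3063 CPM in PUP, with no overlap.

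Ier2, a nuclear protein induced by growth factors, has 1 exon on chromosome 8, 84661331 to 84662852 (minus strand, ENSMUSG00000053560). It stood at 832 and 853 CPM in ADU, against 512 and 835 CPM in PUP. The ADU libraries averaged 842.5 ± 14.2 CPM (SD, n = 2) and PUP replicate 2 lay between them, so that PUP replicate 1 was the 1 low library. The log2 fold change was 0.32 ± 0.81 (SE; edgeR adjusted p = 0.904).

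The remaining genes limit the response. Dusp1, a phosphatase that inactivates MAP kinases, lies on chromosome 17, 26505590 to 26562128 (minus strand, ENSMUSG00000024190). It stood at 1548 and 1201 CPM in ADU, against 977 and 1163 CPM in PUP. The ADU libraries were above the PUP libraries by a narrow margin, which was gone on library totals, and the log2 fold change was 0.36 ± 0.95 (SE; edgeR adjusted p = 0.911). Zfp36, or tristetraprolin, which binds AU-rich elements and hastens the decay of immediate early and cytokine mRNAs, lies on chromosome 7, 28376784 to 28380253 (minus strand, ENSMUSG00000044786). It stood at 969 and 1638 CPM in ADU, against 770.5 and 1617 CPM in PUP. Replicate 2 was higher in both ages, and the log2 fold change was 0.13 ± 1.01 (SE; edgeR adjusted p = 0.973).

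Over the 10 genes, none was called at an adjusted p of 0.05 by edgeR, which called 0% of all 16320 genes higher and 0% lower in ADU, nor by limma-voom, which also called 0%. At an unadjusted p of 0.05, edgeR gave 0 of the 10, against 5.99% of all genes higher and 8.49% lower in ADU, and limma-voom 0 of the 10, against 13.6% of all genes in either direction. DESeq2 called 0 of the 10, against 3.66% of all genes higher and 5.20% lower. Fold changes were positive for 6 of the 10 (42.9% of all genes) and ran from -0.74 to 0.90, with a median of 0.23 beside -0.24 over all genes tested. Both medians moved with PUP replicate 1. They were 0.03 for the 10 genes and -0.08 for all genes with its background subtracted, and -0.15 and 0.02 without that library. For any gene taken alone, permuting 2 against 2 libraries exactly gives no two-sided p under 0.333. All 10 passed the filter on low counts, with at least 4732 counts in each library.

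Separation of the ages depended on the scaling. On the TMM scale, 4 of the 10 had both ADU libraries above both PUP libraries (21.8% of all genes) and 1 had both below (27.1%). On library totals 3 were above (17.2% of all genes) and 3 below (32.6%). Fos, Jun and Atf3 were above in either case and Egr1 below in either case. With the background of PUP replicate 1 subtracted, Fosb stood at 614 and 750 CPM in ADU and 1047 and 1534 CPM in PUP. Nr4a1 then stood at 1076 and 1697 CPM in ADU and 1886 and 3312 CPM in PUP, and like Fosb no longer overlapped. Dusp1 then overlapped, at 1484 and 1149 CPM in ADU and 1326 and 1114 CPM in PUP. The share of all genes was not computed for that setting. In the edgeR fit, 0 of the 10 had an absolute log2 fold change over 1, which 47.9% of all genes had. The median absolute log2 fold change was 0.58 for the 10 genes and 0.94 for all genes, and it was 1.35 for the 127 tested genes with at least the mean CPM of Ier2, the least abundant of the 10 by CPM. Those 127 include the 10, and a gene high in 1 library alone can enter by its mean. The acinar marker Mucl2, at 392 and 37830 CPM in ADU and 13.4 and 94.2 CPM in PUP, is an example. Such genes can raise the value of 1.35. Without PUP replicate 1, the median of the 10 was -0.15, and without PUP replicate 2 it was 0.92 (0.65 with the 16320 genes kept). Without PUP replicate 2 and with the filter on low counts applied anew, Fosb, Egr1 and Nr4a1 stood at 0.15, 0.12 and 0.33. With the 16320 genes kept they stood at -0.13, -0.15 and 0.06, so that Fosb and Egr1 stayed negative. Junb and Zfp36 changed direction under 7 alternatives each.

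**Figure D2:**
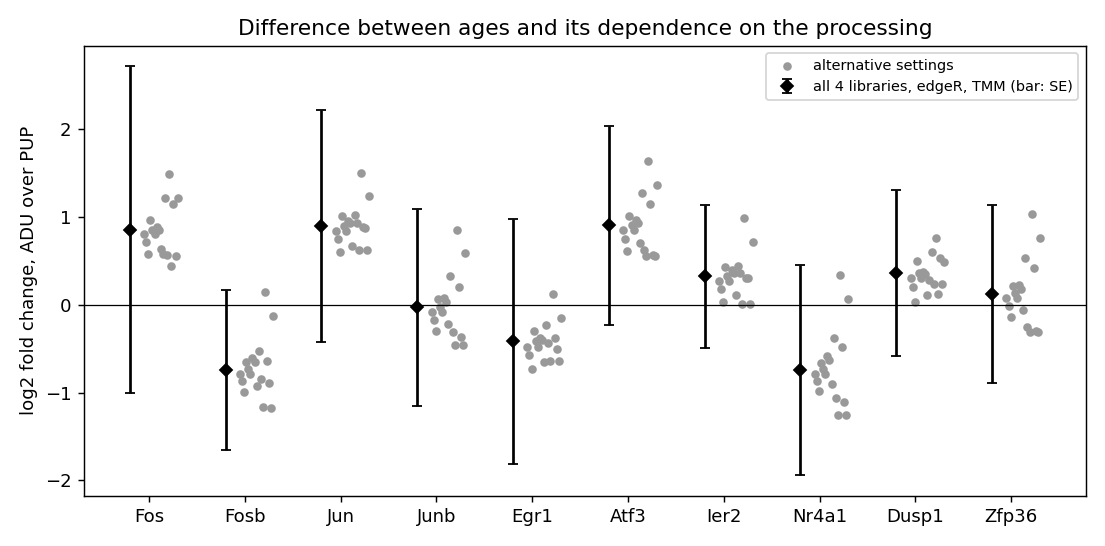
Log2 fold change of ADU over PUP for each immediate early gene. Black diamonds with SE bars are the edgeR fit to all 4 libraries, and grey points are the 17 alternative settings. Points stay above 0 for Fos, Jun, Atf3, Ier2 and Dusp1, while those of the other 5 genes lie on both sides of 0.

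Replicates of one age differed by a median absolute log2 ratio of 0.49 in ADU and 0.76 in PUP over the 10 genes, beside 0.58 between the ages. The first pair of values compares single libraries. The value between the ages is a fitted difference of groups of 2 libraries, which varies less, so the measures are unlike. In ADU, the log2 ratio of replicate 2 over replicate 1 ran from -0.67 for Fos to 0.76 for Zfp36, with a median of 0.23, beside 0.05 over all genes. In PUP it ran from 0.25 for Dusp1 to 1.32 for Nr4a1, with a median of 0.76, beside -0.06 over all genes and 1.25 over the 127 most abundant genes. All 10 genes were higher in PUP replicate 2 than in PUP replicate 1 on the TMM scale. On library totals the PUP range was -0.27 to 0.80 with a median of 0.24.

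Ratios between genes of the same library do not depend on how libraries are scaled. The pairs given here were picked after their values were seen. Per kb of main transcript, Fos exceeded Fosb by 27.6 and 14.2 times in ADU and by 7.96 and 6.08 times in PUP. Counts per kb of Jun over Junb came to 1.47 and 1.0 in ADU and 0.759 and 0.563 in PUP, so that Junb was the more abundant Jun gene in both PUP libraries and in neither ADU library. Atf3 over Egr1 gave 1.58 and 2.16 in ADU and 0.660 and 0.823 in PUP. The ratio of the feedback genes Dusp1 and Zfp36 was 2.24 and 1.03 in ADU against 1.78 and 1.01 in PUP, which overlap. Of the 45 ratios among the 10 genes, 28 did not overlap between ages, which is 62.2%, and among the 127 most abundant genes it was 75.4% of 8001 ratios. The choice of those 127 by mean CPM limits this comparison as well.

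**Figure D3:**
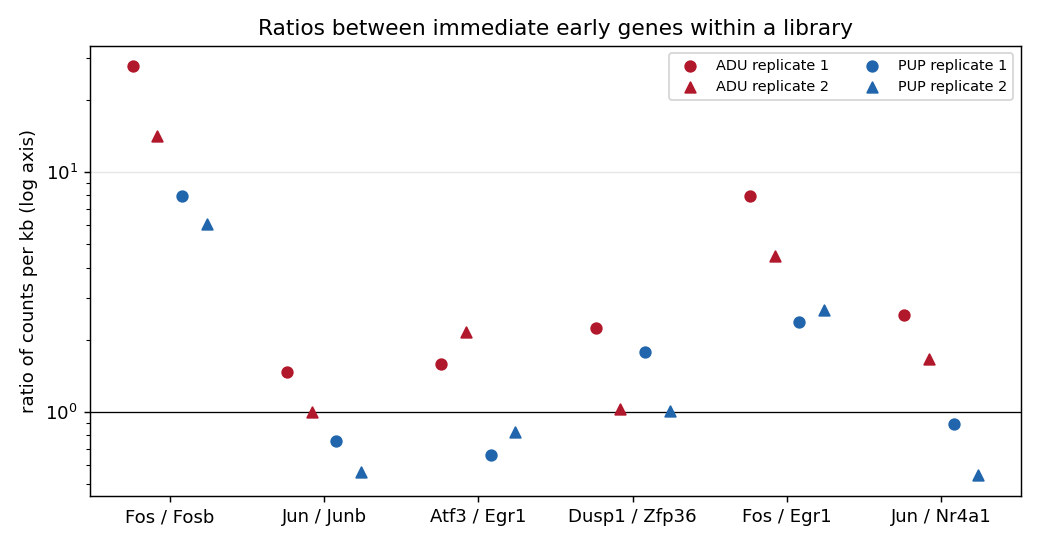
Ratio of counts per kb between pairs of immediate early genes within each library, on a log axis, with ADU in red and PUP in blue. Fos over Fosb is 27.6 and 14.2 in ADU and 7.96 and 6.08 in PUP, and Dusp1 over Zfp36 overlaps between ages.

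The order of the 10 genes by CPM per kb began with Fos and ended with Fosb in each of the 4 libraries. In between it differed: Atf3 and Jun came next after Fos in both ADU libraries, whereas Egr1 followed in PUP replicate 1 and Nr4a1 in PUP replicate 2. Ier2 and Zfp36, near the low end, overlapped: Ier2 stood at 547 and 560 CPM per kb in ADU and 336.5 and 548.5 CPM per kb in PUP. Zfp36 stood at 347 and 587 CPM per kb in ADU and 276 and 580 CPM per kb in PUP. Among the 100 highest genes tested per length were 5 and 6 of the 10 in the ADU libraries and 8 and 6 in the PUP libraries. The lowest of the 10, Fosb, ranked 535 and 408 in ADU and 158 and 199 in PUP.

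Promoter windows of RefSeq (build GRCm38.p6, from 250 bases before to 50 after the start) were found for 8 of the 10 genes, all but Egr1 and Ier2. They were searched on both strands for sites of the factors that act on immediate early genes: the full cAMP response element TGACGTCA bound by CREB, its core TGACG, which every full element also contains, the AP-1 site TGANTCA, the CArG box of serum response factor, and the EGR site GCGTGGGCG. The core TGACG was present in 6 of 8 windows, and in 20.8% of all 32851 windows in the table. The full element was present in 1, Dusp1 (1.79% of all windows), and the CArG box in 1, Zfp36 (1.63%). The AP-1 and EGR sites matched 0 of 8 (7.81% and 0.612% of all windows). These shares were not tested, and a match is a run of letters, not evidence that a factor binds. Sites outside the windows, and any of Egr1 and Ier2, were not searched. The absence of a match therefore does not mean that a gene lacks the site. The 250 bases upstream of the start are printed 5′ to 3′ on the gene's strand for 3 genes, to show where the motifs lie, with motif letters in capitals. Dusp1 holds the most different motifs; Zfp36 and Fos were taken next, a tie among genes with 1 kind of motif that was settled by the rarity of the motif and then by the order of the list, after the matches were seen.
Fos, chr12:85473640-85473889, plus strand, core elements at -129 and -66 from the start: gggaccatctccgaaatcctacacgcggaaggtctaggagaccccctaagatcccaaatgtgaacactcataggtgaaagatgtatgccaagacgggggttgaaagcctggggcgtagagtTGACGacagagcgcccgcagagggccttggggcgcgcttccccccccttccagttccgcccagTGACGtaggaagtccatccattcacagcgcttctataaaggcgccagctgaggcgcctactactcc
Dusp1, chr17:26508473-26508722, minus strand, a core element at -191 and the full element at -143: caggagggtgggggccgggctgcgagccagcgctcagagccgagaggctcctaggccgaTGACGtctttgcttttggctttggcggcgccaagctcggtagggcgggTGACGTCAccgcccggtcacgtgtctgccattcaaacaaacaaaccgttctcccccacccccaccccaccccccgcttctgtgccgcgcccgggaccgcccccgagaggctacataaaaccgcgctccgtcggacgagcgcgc
Zfp36, chr7:28379229-28379478, minus strand, the CArG box at -58: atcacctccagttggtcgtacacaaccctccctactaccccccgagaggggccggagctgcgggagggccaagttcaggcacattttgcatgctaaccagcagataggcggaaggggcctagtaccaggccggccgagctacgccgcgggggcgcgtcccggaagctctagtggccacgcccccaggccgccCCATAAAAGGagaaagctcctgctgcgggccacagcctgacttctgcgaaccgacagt

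Marker genes of cell types differed between libraries far more than the summed immediate early genes did. Fewer cells of a type and less RNA per cell cannot be told apart in such bulk samples. Fgf10, the gene behind the sort, had 2550 and 560 counts in ADU and 252 and 458 counts in PUP, so its RNA was present in all 4 libraries. The 7 markers of ionocytes, a duct cell type that transports ions, summed to 6470 and 4383 CPM in ADU and 155 and 209 CPM in PUP. All 7 had a count in every library, although Bsnd, with 10 counts in PUP replicate 1, was below the 38.5 expected there from background. Background there was also expected to make up 84.5% of the counts of Foxi1, 66.6% of Cftr, 51.3% of Hepacam2 and 13.7% of Tfcp2l1. The 7 mesenchymal markers summed to 1117 and 21840 CPM in ADU and 25490 and 58110 CPM in PUP. The 7 general epithelial markers summed to 8211 and 12940 CPM in ADU and 1452 and 3477 CPM in PUP, and the 7 myoepithelial and smooth muscle markers to 5178 and 2213 CPM in ADU and 4922 and 14330 CPM in PUP. The 7 acinar markers summed to 551 and 45520 CPM in ADU and 576 and 1833 CPM in PUP, with Aqp5, Dcpp1 and Lpo at 0 counts in ADU replicate 1.

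Leukocytes and endothelium, which also mount immediate early responses, had low marker sums in most libraries. The 10 leukocyte markers summed to 37.9 and 30.3 CPM in ADU and 116 and 14.8 CPM in PUP. Ptprc, the pan-leukocyte antigen CD45, had 0 counts in PUP replicate 2, and Adgre1 and Cd3e had 0 counts in ADU replicate 1, ADU replicate 2 and PUP replicate 2. The 7 endothelial markers summed to 0.077 and 853 CPM in ADU and 115 and 7.30 CPM in PUP, with 6 of 7 at 0 counts in ADU replicate 1. The 6 markers of nerve and glia summed to 35.6 and 66.5 CPM in ADU and 148 and 235 CPM in PUP, and the 5 of red cells to 0.23 and 11.9 CPM in ADU and 2.49 and 4.26 CPM in PUP. Part of each of these 4 sums in PUP replicate 1 was expected from background. The expected share of the counts was 43.1% for Ptprc, 16.1% for Lyz2, 37.1% for Pecam1 and 43.2% for Emcn. It was 7.25% for Sox10, 40.4% for Ncam1 and 98.9% for Alas2. What part the makeup had in the levels of the immediate early genes was not tested.

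**Figure D4:**
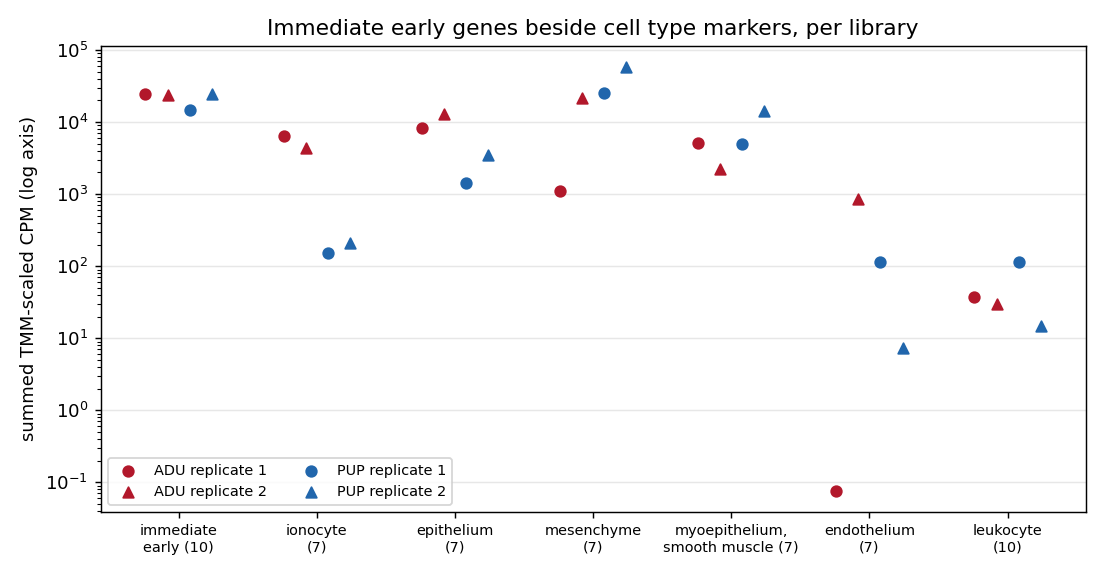
Summed TMM-scaled CPM of the 10 immediate early genes and of marker lists for other cell types in each library, on a log axis, with the number of genes in parentheses. The immediate early sum lies between 14570 and 24770 CPM in all 4 libraries, while the mesenchymal sum spans 1117 CPM in ADU replicate 1 to 58110 CPM in PUP replicate 2.

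Further immediate early genes, 46 in the list and 45 of them tested, mostly had lower values in ADU. The log2 fold change was negative for 35 and positive for 10, with a median of -0.85 beside -0.24 over all genes. Both ADU libraries were below both PUP libraries for 20 of the 45 (27.1% of all genes) and above for 6 (21.8%) on the TMM scale. On library totals they were below for 31 (32.6% of all genes) and above for 5 (17.2%). By edgeR 0 were called, and at an unadjusted p of 0.05 the count was 1 higher (5.99% of all genes) and 6 lower (8.49%). DESeq2 called 0 of the 45 higher (3.66% of all genes) and 7 lower (5.20%), singled out here after their values were seen: Fosl1, Egr2, Egr3, Myc, Arc, Ccn1 and Zfp36l2.

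Of that list, Ccn1, which encodes a matrix-associated protein, was the most abundant and stood at 559 and 1181 CPM in ADU, against 2125 and 3615 CPM in PUP (log2 fold change -1.72 ± 1.2, SE; edgeR adjusted p = 0.60). Btg2, an antiproliferative gene, had the opposite sign, with 1464 and 2208 CPM in ADU and 546.5 and 895 CPM in PUP (1.35 ± 1.0, SE; edgeR adjusted p = 0.631). Klf6, a Krüppel-like zinc finger factor, stood at 968 and 1275 CPM in ADU and 647 and 1400 CPM in PUP, which overlap. The most positive value was that of Gadd45g, a stress gene, with 164 and 350.5 CPM in ADU and 82.8 and 100.2 CPM in PUP, at 1.49 ± 0.61 (SE; edgeR adjusted p = 0.339). The most negative was that of Egr4, with 0 and 13 counts in ADU and 47 and 250 counts in PUP, 30.0 of the 47 being expected from background. Egr3, a relative of Egr1, stood at 8.43 and 4.61 CPM in ADU and 36.2 and 82.9 CPM in PUP, and Arc, an activity-regulated gene best known from neurons, at 120 and 60.3 CPM against 365 and 942 CPM. Egr2 stood at 45.4 and 63.7 CPM in ADU and 134 and 283 CPM in PUP. Fosl1, a relative of Fos of whose exon length 57.2% is shared with Ccdc85b on the opposite strand, stood at 23.0 and 46.2 CPM in ADU and 106 and 282 CPM in PUP, so its value is uncertain. The difference between these paralogues and Egr1 or Fos was not tested.

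**Figure D5:**
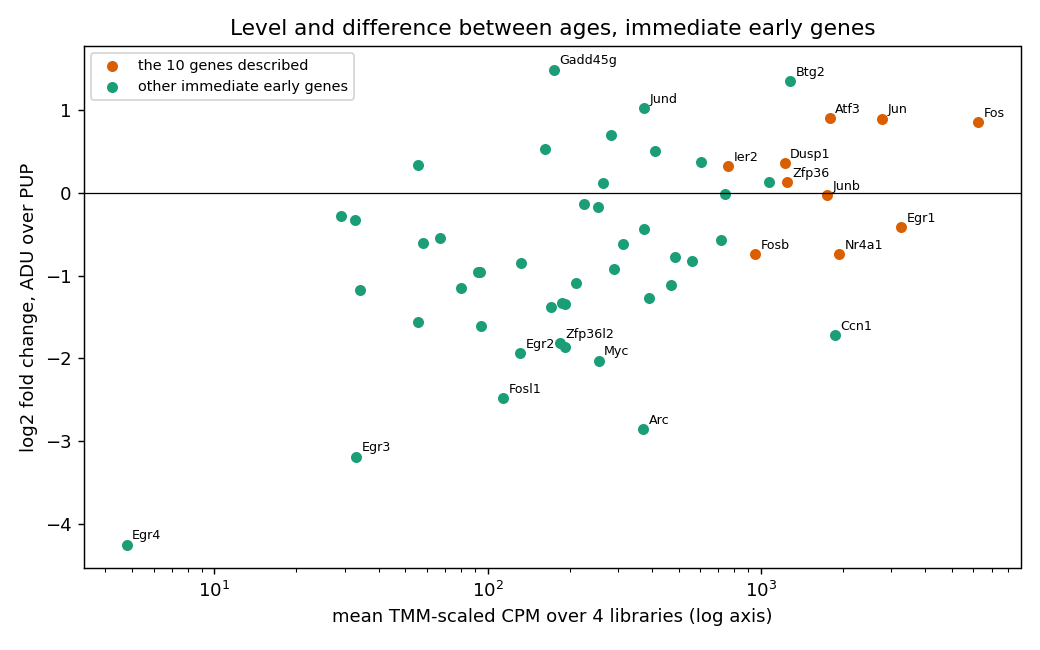
Log2 fold change of ADU over PUP against mean TMM-scaled CPM over the 4 libraries, log axis, for the 10 genes described (orange) and the 45 other immediate early genes tested (green). The 10 genes lie between -0.74 and 0.90, whereas Egr3 and Arc lie at -3.19 and -2.86.

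Upstream of these genes, 21 activators and kinases were all tested, with 11 positive and 10 negative fold changes, a median of 0.03 and 0 calls by edgeR. For comparison with this list and those below, 42.9% of all genes were positive, their median was -0.24 and edgeR called 0%. With the background of PUP replicate 1 subtracted, the median of all genes was -0.08. The medians of these lists were not recomputed there. Among the most abundant, the MAP kinase kinase Map2k2 stood at 210 and 160.5 CPM in ADU and 59.5 and 137 CPM in PUP. Mapk3, which encodes ERK1, stood at 127 and 130 CPM in ADU and 67.2 and 112 CPM in PUP. DESeq2 called 1 of the 21 higher, near the 3.66% of all genes: Rps6ka1, the kinase RSK1 that phosphorylates CREB and Fos family proteins, at 161 and 115 CPM in ADU and 43.2 and 40.8 CPM in PUP (edgeR adjusted p = 0.263, DESeq2 adjusted p = 0.0219). Mapk8, which encodes the Jun kinase JNK1, had the most negative value of that list, -1.69 ± 0.66 (SE; edgeR adjusted p = 0.322), with 160 of its 679 counts in PUP replicate 1 expected from background.

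Of 17 bZIP factors that can pair with AP-1 proteins or share their sites, 6 were positive and 11 negative, with a median of -0.49 and 0 calls by edgeR. Atf4, a stress-induced factor, stood at 176 and 230 CPM in ADU and 196.5 and 459 CPM in PUP, and Nfe2l2, the NRF2 gene, at 218 and 261.5 CPM in ADU and 192 and 487 CPM in PUP. Nfe2l1, a relative of NRF2, stood at 235 and 269 CPM in ADU and 89.6 and 210 CPM in PUP. The most positive value was that of Batf2, which rests on 0 and 29 counts in ADU and 7 and 0 counts in PUP. DESeq2 called 1 of the 17 lower, near the 5.20% of all genes: Maf, at 9.20 and 10.7 CPM in ADU and 55.2 and 48.1 CPM in PUP.

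Dual-specificity phosphatases other than Dusp1 were not uniform. Of 10 tested, 4 were positive and 6 negative, with a median of -0.44 and 0 calls by edgeR. DESeq2 called 1 of the 10 higher (3.66% of all genes) and 3 lower (5.20%). Dusp5, which inactivates nuclear ERK, stood at 36.8 and 47.6 CPM in ADU and 217 and 559 CPM in PUP (log2 fold change -3.20 ± 0.72, SE; edgeR adjusted p = 0.226, DESeq2 adjusted p = 6.03e-06). Dusp6, which inactivates cytoplasmic ERK, stood at 171 and 219 CPM in ADU and 375 and 699 CPM in PUP, and Dusp7 at 32.9 and 22.1 CPM in ADU and 70.7 and 187 CPM in PUP. Dusp4, a nuclear phosphatase of the same family, was at 112 and 70.3 CPM in ADU and 19.6 and 24.6 CPM in PUP (2.04 ± 0.50, SE; edgeR adjusted p = 0.241). The most negative value of the list was that of Dusp9, with 0 and 4 counts in ADU and 8 and 52 counts in PUP. The 15 genes of mRNA decay tested beside Zfp36 had 4 positive and 11 negative values with a median of -0.18. There were 0 calls by edgeR (0% of all genes) and 0 by DESeq2 (3.66% of all genes higher, 5.20% lower). Their most abundant member, Elavl1, encodes HuR, which binds AU-rich elements and stabilises the mRNA, and stood at 126 and 152 CPM in ADU and 117 and 177 CPM in PUP. Hnrnpd, or AUF1, which binds the same elements, stood at 82.6 and 110 CPM in ADU and 66.0 and 148 CPM in PUP. Subunits of the CCR4-NOT deadenylase differed in sign: Cnot2 had the most positive value, 1.02 ± 0.52 (SE; edgeR adjusted p = 0.458), and Cnot1 stood at -0.47 ± 0.45 (edgeR adjusted p = 0.722). The decapping gene Dcp1a had the most negative, -0.93 ± 0.83 (edgeR adjusted p = 0.695).

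Chaperones of the heat shock response were also abundant. Of 14 tested, 8 were positive and 6 negative, with a median of 0.11 and 0 calls by edgeR. Hsp90ab1, a constitutive Hsp90, stood at 2149 and 2246 CPM in ADU and 933 and 1907 CPM in PUP, and Hspa5, the Hsp70 of the endoplasmic reticulum, at 1085 and 1651 CPM in ADU and 1070 and 1909 CPM in PUP. Hspa1a and Hspa1b encode inducible Hsp70 in near-identical copies, between which reads may be split, so their single values are uncertain. Hspa1b stood at 2463 and 1469 CPM in ADU and 649 and 630 CPM in PUP. Hspa1a stood at 1185 and 793 CPM in ADU and 305 and 275 CPM in PUP. DESeq2 called 2 of the 14 higher (3.66% of all genes), Hspa1b (adjusted p = 0.0174) and Hspa1a (adjusted p = 0.00502), and 1 lower (5.20% of all genes), Dnajb4, at 58.0 and 76.5 CPM in ADU and 150 and 253 CPM in PUP.

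Centred over the 4 libraries, the mean log2(CPM + 1) of the 10 genes was -0.01 and 0.21 in ADU and -0.50 and 0.30 in PUP. This mean joins genes with unlike profiles: Fosb, Egr1 and Nr4a1 were lowest in ADU replicate 1, and the other 7 in PUP replicate 1. Among 4298 other genes with a mean of at least 50 CPM, the 5 nearest to the mean profile by root mean square difference over those 4 libraries were Tbc1d15 (0.0371), Mfsd5 (0.0416), Atg101 (0.0464), Sf1 (0.0471) and Tsc22d4 (0.0563). None of these 5 is on the lists of immediate early genes used here. Tbc1d15, the nearest, stood at 60.7 and 75.7 CPM in ADU and 43.8 and 78.8 CPM in PUP, lowest in PUP replicate 1 like the mean profile.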

How the data were processed

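RNA from cells sorted out of the submandibular gland was measured in 4 libraries, each made, per the labels' protocols, from 1 ng of total RNA by SMART-Seq HT, a kit for full-length cDNA whose reads carry no strand mark. The deposited values are raw read counts per Ensembl gene, 1 file per library, with no normalization. The submitters' processing notes name cutadapt 1.18, STAR 2.5.2a, HTSeq 0.11.0, R 3.5.1, DESeq2 1.20.0 and GRCm38; options and annotation release: not given in the sources used here. HTSeq's tallies of unassigned reads (32.9% and 32.3% of reads in ADU, 84.4% and 31.5% in PUP) entered neither library sizes nor tests. Not used were 2 tables of the whole series, whose 8 value columns are named for no sample. Symbols, positions and lengths came from GENCODE vM21, which matched 53360 of 53465 genes. Per-length levels use the APPRIS principal transcript, or the longest coding or other transcript where there is none, and expected background uses all exons.

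Statistics used R 4.3.3, with edgeR 4.0.16 as the main tool (quasi-likelihood F test, TMM, filterByExpr with minimum count 10 and minimum total 15, age as the only term, Benjamini-Hochberg adjustment over 16320 genes). It was run on simulated data, where recovery of changed genes was required only at a spread well below that of these libraries. At a spread like theirs only the direction was checked. SE is the log2 fold change divided by the square root of F. The common biological coefficient of variation was 0.895. The alternatives comprised library totals, upper-quartile or DESeq2 size factors as scalings, no filter, a stricter filter, DESeq2 1.42.0, limma-voom (limma 3.58.1), the replicate number as a block, PUP replicate 1 with its background subtracted, and leaving out each library; leaving out each library with the genes of the 4-library filter kept was added after seeing the data. The genes described, the lists and the rules were chosen with earlier results of these data known. Of each other pathway list, the text names the 3 most abundant members and those with the largest and smallest fold change, of which 1 gene is not reported here; the DESeq2 calls named besides were chosen after their values were seen.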

Additional observations from a re-analysis of the deposited data

How the results depend on the processing

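None of the 10 immediate early genes was called under any of the 17 alternatives, 13 planned and 4 added. In 8 of these 1 age has a single library, which is assumed to vary like the other age, so they say little about stability. Over all 17, the lowest adjusted p among the 170 values was 0.225 (Jun, DESeq2). Of those values 152 kept their direction. Fos, Jun, Atf3, Ier2 and Dusp1 stayed positive throughout, Fos between 0.44 and 1.49 and Atf3 between 0.55 and 1.64. Zfp36 turned negative with upper-quartile factors (-0.013), library totals (-0.14) and the background subtracted (-0.055). Junb turned positive without a filter (0.060), with limma-voom (0.076) and in the replicate block (0.031), where no gene of any kind was called either. Leaving out each library gave ranges of -0.46 to 0.86 for Junb, -0.31 to 1.03 for Zfp36, -1.17 to 0.15 for Fosb, -0.64 to 0.12 for Egr1 and -1.26 to 0.33 for Nr4a1, the low end without PUP replicate 1 and the high end without PUP replicate 2 in each. With the genes of the 4-library filter kept, Junb ranged from -0.46 to 0.58, Zfp36 from -0.32 to 0.76, Nr4a1 from -1.26 to 0.062, Fosb from -1.17 to -0.13 and Egr1 from -0.65 to -0.15, the last pair with no change of sign; Junb was 0.21 without ADU replicate 1 and Zfp36 -0.30 without ADU replicate 2.

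The median of the 10 genes, 0.23, was 0.03 with the background subtracted, -0.06 on library totals, and -0.15 to 0.92 when leaving out each library (-0.15 to 0.65 on the fixed genes). Over all genes, the number called was 0 with all libraries and the usual filter, 515 without a filter, 15 with the stricter one, 1445 by DESeq2, and 0 to 524 when leaving out each library (0 to 980 on the fixed genes, with 980 without ADU replicate 2, 390 without ADU replicate 1 and 0 without either PUP library). The median of all genes shifted by -0.07, -0.18 and -0.38 under the other 3 scalings. It shifted by 0.16 with the background subtracted and by 0.28 without PUP replicate 1 on the fixed genes. Same-numbered libraries of the 2 ages deviated from their age's mean with a correlation across genes of -0.0982. The labels name no batch, and PUP replicate 1 carries much background. This value therefore cannot tell whether same-numbered libraries were handled together. Counts of the 10 genes were high enough that depth did not limit them.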
